A study of Mus musculus with 6 samples.

Results

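The genes of the fibroblast growth factor (FGF) and epidermal growth factor (EGF) families were followed through ATAC-seq of mouse back skin, an assay in which a transposase inserts adapters into open chromatin so that accessible DNA is recovered as peaks. The set holds every protein-coding gene named Fgf plus a number, Fgfr1 to Fgfr4, Egf, Egfr, Erbb2, Erbb3, Erbb4, Areg, Ereg, Btc, Hbegf, Tgfa, Epgn and Nrg1 to Nrg4, which is 41 genes. Peaks of the 6 libraries that overlapped by 1 bp or more were merged into 75738 consensus regions, and each region was given to the nearest protein-coding gene span within 50 kb in mm10. By this rule 218 of 62802 regions near a gene belonged to the set, and they fell to 32 of the 41 genes. A region is called open in a library where a peak of that library overlaps it.

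The populations were touch dome cells (TD), interfollicular epidermis (IFE) and hair follicle cells (HF), with 2 libraries each, numbered TD-1 and TD-2, IFE-1 and IFE-2, HF-1 and HF-2. Every mouse was TNC-CREER; tdTomato on a C57BL/6 background. All were injected on postnatal days 51 and 52 with tamoxifen (100 µg for each g of weight) and were used at postnatal day 60, so the groups share the driver and the drug. In this design a tamoxifen-dependent Cre under the tenascin C (Tnc) gene switches on a red reporter, TOMATO. All populations were sorted as positive for EPCAM and integrin α6. TD was TOMATO-positive and positive for SCA1, IFE was TOMATO-negative and positive for SCA1, and HF was negative for both. TD therefore means the cells in which the Tnc driver had been active, and any such cell in which the reporter did not recombine would be sorted with IFE. Each library came from 50000 cells, and the labels do not say how many mice gave a library, so the spread between the libraries of a population may be technical.

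FGFs bind receptor tyrosine kinases (FGFR1 to FGFR4) together with heparan sulphate or, for the endocrine FGFs, with Klotho coreceptors. The EGF-like ligands are made as membrane proteins, are released by ADAM proteases, and bind the ERBB receptors, while the neuregulins bind ERBB3 and ERBB4. Both families signal through RAS and MAPK. In skin they are known for keratinocyte growth and migration, for hair follicle formation and for timing the hair cycle.

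The 6 peak lists held 50153 and 59250 peaks in TD, 52219 and 51124 in IFE, and 54844 and 57131 in HF. They covered 47.0 and 58.9 Mb in TD, 53.1 and 49.8 Mb in IFE, and 54.1 and 53.6 Mb in HF, so the smallest and the largest list were both from TD. Read depth is unknown because the lists hold positions only. Of the marker lists for the labelled cells, the basal keratinocyte genes (Krt5, Krt14, Trp63, Itga6, Itgb4, Col17a1) had 54 and 61 of their 81 regions open in TD, 66 and 62 in IFE, and 53 and 55 in HF. The hair follicle list (Lhx2, Sox9, Lgr5, Krt15, Cd34, Nfatc1, Tcf7l1, Runx1) had 78 and 96 of 126 regions open in TD, 71 and 72 in IFE, and 107 and 109 in HF. Tnc itself had a longer peak-covered length in TD than in HF (log2 difference 0.38, adjusted p = 0.041). This call was lost without any 1 library, with adjusted p of 0.109 without TD-1, 0.144 without TD-2, 0.13 without IFE-1 or IFE-2, 0.0879 without HF-1 and 0.195 without HF-2, and the difference turned to −0.09 with genes limited to 10 kb. The touch dome list (Tnc, Krt17, Gli1, Cd200, Ptch1) had 32 and 32 of its 38 regions open in TD, 25 and 26 in IFE, and 33 and 32 in HF. Between TD and IFE, 7 of these 38 regions were specific to TD (against 4.48% of all regions near genes) and 0 to IFE (against 1.82%). No gene of the list passed the test on covered length between TD and IFE. The hair follicle list went the same way, with 14 of 126 regions specific to TD and 1 to IFE. Between IFE and HF, 3 regions of the touch dome list were specific to IFE (against 9.91%) and 10 to HF (against 12.8%).

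Of the 218 regions of the FGF and EGF families, 125 and 154 were open in TD, 155 and 140 in IFE, and 148 and 157 in HF (139.5 ± 20.5, 147.5 ± 10.6 and 152.5 ± 6.36, SD, n = 2 each). The ranges of TD and IFE overlapped, and so did those of TD and HF. In all, 88 regions (40.4%) were open in all 6 libraries, against 48.2% of all regions near genes, and 32 (14.7%) were open in 1 library, against 13.1%. The other regions were unevenly divided. A peak in both HF libraries and in none of the other 4 marked 20 regions (9.17%, against 6.22% of all regions near genes), and a peak in both TD and both IFE libraries with none in HF marked 12 (5.5%, against 6.31%). Only 3 regions were open in both IFE libraries alone (1.38%, against 1.22%), and 0 were open in both TD libraries alone, where 0.967% of all regions were. All 3 regions open in both TD and in no IFE library, 1 each at Fgf18, Fgfr2 and Nrg1, were also open in both HF libraries (1.38%, against 3.28% of all regions). Another 2, at Fgf14 and Fgfr2, were open in both IFE and both HF libraries and in no TD library (0.917%, against 0.336%).

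**Figure D1:**
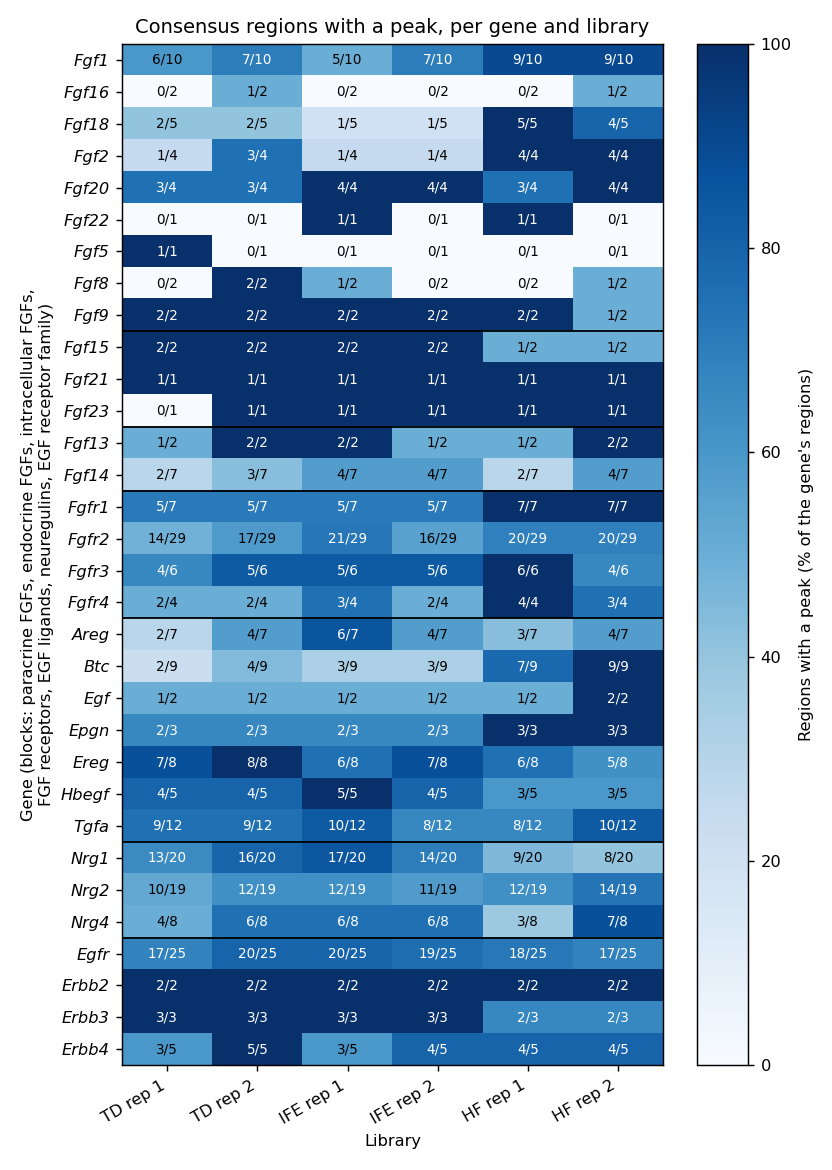
Number of consensus regions open in each library (columns, TD, IFE and HF with 2 libraries each) over all regions of the gene (rows, in blocks by role), with the shade giving the percentage. Nrg1 is darker in the TD and IFE columns (13 to 17 of 20 regions) than in HF (9 and 8), while Fgf1, Fgf2, Fgf18, Btc and Fgfr1 are darkest in HF.

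Specific regions were counted between each pair of populations as those with a peak in both libraries of 1 and in neither library of the other. With 2 libraries against 2, an exact two-sided permutation test cannot give a p below 1 in 3, so these counts are described beside the share of all regions near genes called the same way. In sorted bulk cells, a region open in fewer cells and a region less open in each cell cannot be told apart. Between TD and IFE, 3 member regions were specific to TD (1.38%, against 4.48% of all regions) and 6 to IFE (2.75%, against 1.82%). Between TD and HF, 18 were specific to TD (8.26%, against 8.02%) and 23 to HF (10.6%, against 7.26%). Between IFE and HF, 24 were specific to IFE (11.0%, against 9.91%) and 31 to HF (14.2%, against 12.8%). The shares for TD over HF, IFE over HF and HF over IFE lay close to those of all regions. Those for TD over IFE, IFE over TD and HF over TD lay farther off. The counts were not tested and those between TD and IFE are small, so they say little about these families as a group. Leaving out 1 library loosens the rule for a specific region, so a count can then only stay or rise. For TD against IFE, the 3 became 14 without TD-1, 5 without TD-2, and 8 without IFE-1 or without IFE-2. The 6 became 22 without TD-2 and 19 without IFE-2. Since the rule sets the direction of these changes, they cannot show how far the counts rest on single libraries.

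The length of each gene's regions that was covered by peaks was then compared as log2(bp + 1000), after scaling each library to the mean total length, and the lengths given for a gene are these scaled values. The limma fit over all 15553 genes with a region used all 6 libraries, with Benjamini-Hochberg adjustment over these genes and a threshold of 0.05. The added 1000 bp makes fold changes of genes with little covered length smaller than they are. Between TD and IFE, 0 of 32 tested members passed in either direction, where 2.58% of all genes passed as higher in TD and 0.148% as higher in IFE. At an unadjusted p under 0.05 there were 5 members higher in IFE (Fgf20, Fgf23, Areg, Egfr and Fgfr4) and 0 higher in TD, the lowest adjusted p was 0.239, and the same fit on the number of open regions also called 0. Between TD and HF, 2 members were higher in TD (6.25%, against 8.92% of all genes) and 4 in HF (12.5%, against 5.46%). Between IFE and HF, 4 were higher in IFE (12.5%, against 13.8%) and 5 in HF (15.6%, against 10.5%). The median log2 difference over the 32 members was −0.09 for TD over IFE (−0.03 over all genes), −0.00 for TD over HF (0.03) and 0.12 for IFE over HF (0.06). TD against HF and IFE against HF share the HF libraries, so similar values in both are not independent.

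**Figure D2:**
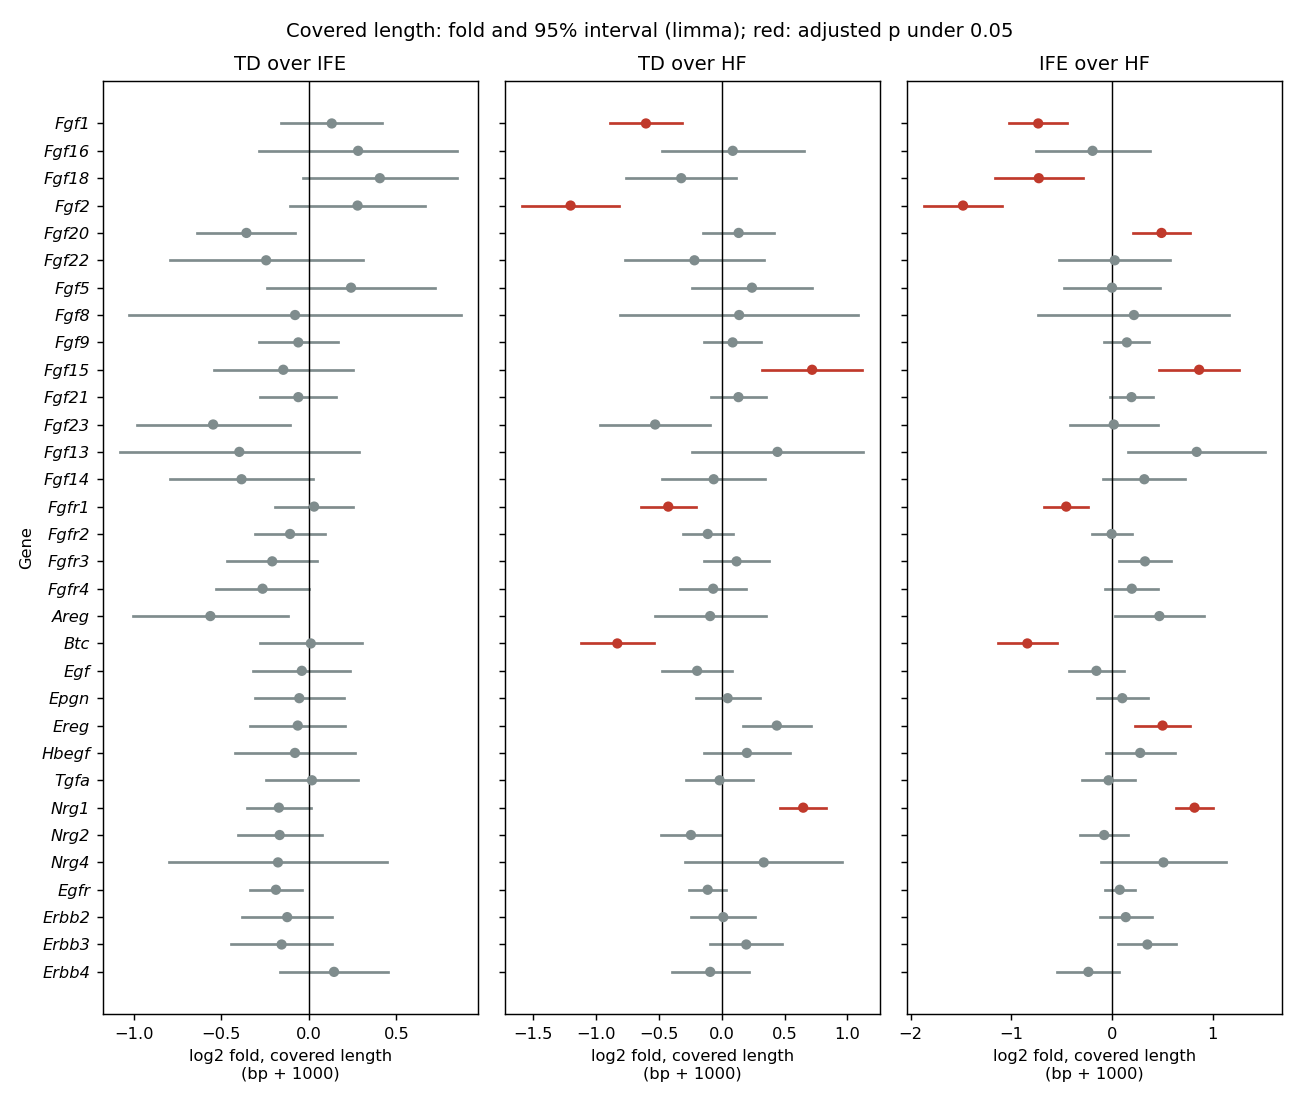
Log2 difference in peak-covered length with its 95% interval from limma for each of the 32 members with a region (rows), for TD over IFE, TD over HF and IFE over HF (panels), with adjusted p under 0.05 in red. No interval is red for TD over IFE, and Fgf2 lies farthest to the left for TD over HF (−1.20) and IFE over HF (−1.48).

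Among the paracrine FGF ligands, 9 of 15 had a region, and Fgf2, Fgf1 and Fgf18 had the longer covered length in HF. Fgf2 (basic FGF, gene ID 14173, chr3:37348477-37410106) is a secreted mitogen for many cell types. Its 4 regions, all inside the gene span, were covered over 551 and 1047 bp in TD, 382 and 563 bp in IFE, and 2738 and 3497 bp in HF. Both HF libraries lay far above the other 4, whose ranges for TD and IFE overlapped. By limma the log2 difference was −1.48 for IFE over HF (SE 0.160, adjusted p = 0.00183) and −1.20 for TD over HF (SE 0.160, adjusted p = 0.00712), while TD over IFE gave 0.28 (95% interval −0.11 to 0.66). Of the 4 regions, 1 (chr3:37353923-37355249) was open in all 6 libraries. The region at the start of the gene (chr3:37347928-37348919) and another farther in (chr3:37380168-37381133) were open in both HF libraries and in TD-2, and the last (chr3:37383041-37383644) in HF alone. Left out singly, IFE-1 (adjusted p = 0.053) or HF-2 (0.0563) ended the IFE against HF call, and TD-1 (0.0684), IFE-1 (0.0541), IFE-2 (0.0545), HF-1 (0.0794) or HF-2 (0.118) the TD against HF call. Over all 14 alternatives the adjusted p ran from 0.000183 to 0.183 for IFE against HF and from 0.000975 to 0.517 for TD against HF, with the same sign throughout.

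Promoter windows from 250 bases before to 50 bases after the start site were taken from RefSeq (GRCm38.p6, the assembly of mm10) for the 29 of 41 members that the table holds. Of these members, 12 had a window overlapped by peaks in all 6 libraries, 7 had one overlapped in 1 to 5 libraries, and 11 had only windows with no peak, with Fgf13 counted in the first and the second group because it has several start sites. The 4 windows below are shown because Fgf2 and Fgfr4 were the members whose window overlapped a region specific to 1 population, Erbb4 had its window covered in HF alone, and Egfr is a receptor whose window was covered in every library. Each is written 5′ to 3′ on the strand of the gene, and capitals mark exact matches, on either strand, to the short motifs searched.
Fgf2, chr3:37348403-37348702, plus strand: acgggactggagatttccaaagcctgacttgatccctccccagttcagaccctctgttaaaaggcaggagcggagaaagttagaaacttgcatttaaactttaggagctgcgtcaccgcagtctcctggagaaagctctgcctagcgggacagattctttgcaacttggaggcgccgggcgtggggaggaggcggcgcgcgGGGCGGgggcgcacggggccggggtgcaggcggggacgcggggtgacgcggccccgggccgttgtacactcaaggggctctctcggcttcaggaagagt
Fgfr4, chr13:55152568-55152867, plus strand: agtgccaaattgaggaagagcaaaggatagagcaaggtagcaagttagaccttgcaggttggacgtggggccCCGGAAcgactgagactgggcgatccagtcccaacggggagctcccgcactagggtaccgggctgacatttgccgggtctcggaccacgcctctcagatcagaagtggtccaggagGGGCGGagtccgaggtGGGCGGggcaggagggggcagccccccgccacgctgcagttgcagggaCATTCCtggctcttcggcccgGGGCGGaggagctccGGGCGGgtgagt
Erbb4, chr1:69108010-69108309, minus strand: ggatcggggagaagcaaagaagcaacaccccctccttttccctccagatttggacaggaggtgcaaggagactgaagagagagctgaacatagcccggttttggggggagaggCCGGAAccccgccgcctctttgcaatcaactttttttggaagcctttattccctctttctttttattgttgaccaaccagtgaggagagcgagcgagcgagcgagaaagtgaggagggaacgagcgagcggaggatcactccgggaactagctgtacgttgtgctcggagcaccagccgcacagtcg
Egfr, chr11:16751953-16752252, plus strand: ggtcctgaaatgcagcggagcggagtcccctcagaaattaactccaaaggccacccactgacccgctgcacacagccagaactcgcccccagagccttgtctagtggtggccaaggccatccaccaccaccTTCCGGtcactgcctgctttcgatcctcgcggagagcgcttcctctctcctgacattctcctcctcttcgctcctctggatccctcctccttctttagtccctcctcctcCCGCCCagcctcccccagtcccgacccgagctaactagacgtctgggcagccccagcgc

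Of the 300 bases of the Fgf2 window, peaks covered 0 and 260 in TD, 0 and 0 in IFE, and 300 and 244 in HF. The Fgfr4 window was covered over 0 and 0 bases in TD, 176 and 0 in IFE, and 216 and 177 in HF. Peaks at the Erbb4 window covered 0 and 0 bases in TD, 0 and 0 in IFE, and 300 and 300 in HF. Erbb4 differed in the extent of the peaks and not in their presence, since the region it lies in (chr1:69106256-69108623) was open in all 6 libraries. The peaks in TD-1, TD-2, IFE-1 and IFE-2 stopped 512, 86, 69 and 240 bases downstream of the start site, while those of both HF libraries ran through it, and IFE-1 had a further peak beyond the window. Of the Egfr window, 300 and 296 bases were covered in TD, 300 and 300 in IFE, and 299 and 246 in HF, so this promoter did not separate the populations. The motifs were searched on both strands. The AP-1 motif was read as TGANTCA and is held by 7.81% of 32851 RefSeq promoters. The TEAD motif was read as GGAATG (held by 14.7% of promoters), and the RUNX motif as TGTGGT (held by 16.8% of promoters). GATA factors were given the letters AGATAA (held by 11.2% of promoters), and ETS factors the letters CCGGAA (held by 14.9% of promoters). The E-box was read as CACGTG (held by 7.15% of promoters), the SP/KLF box as GGGCGG (held by 35.7% of promoters), and the CRE motif as TGACGT (held by 7.51% of promoters). The Fgf2 window held 1 SP/KLF match. The Fgfr4 window held 4 SP/KLF matches, 1 ETS match and 1 TEAD match, Erbb4 held 1 ETS match, and Egfr held 1 ETS and 1 SP/KLF match. These matches describe letters only, and no match overlapped another.

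Fgf1 (acidic FGF, which binds all FGF receptors; gene ID 14164, chr18:38838672-38929470) had 10 regions inside its span, and all 10 also overlapped the span of the neighbouring Arhgap26, so these peaks cannot be given to 1 of the 2 genes. They were covered over 7640 and 8357 bp in TD, 6368 and 8157 bp in IFE, and 12818 and 12494 bp in HF. Both HF libraries were above the other 4. In log2 units the difference was −0.73 for IFE over HF (SE 0.119, adjusted p = 0.00698) and −0.60 for TD over HF (SE 0.119, adjusted p = 0.0229). There were 5 regions open in all 6 libraries and 2 (chr18:38888181-38888873 and chr18:38889994-38890702) open in HF alone. For Fgf1, the IFE against HF call ended without HF-1 (adjusted p = 0.102) or HF-2 (0.097), and the TD against HF call without TD-1 (0.17), TD-2 (0.1), HF-1 (0.19) or HF-2 (0.179). Over the 14 alternatives the adjusted p ran from 0.00276 to 0.239 for IFE against HF and from 0.0104 to 0.425 for TD against HF, with the same sign.

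Fgf18 (gene ID 14172, chr11:33116970-33147400), a ligand known in mouse for holding hair follicles in their resting phase, had 5 regions. They were covered over 3062 and 2474 bp in TD, 1542 and 2166 bp in IFE, and 4470 and 3031 bp in HF, and HF lay above IFE but overlapped TD. The region over the start of the gene was open in all 6 libraries, and the remaining 4 lay 11.5 to 38.6 kb outside the span. The nearest of them (chr11:33104677-33105436) was open in both TD and both HF libraries and in neither IFE library, and 2 others (chr11:33077886-33078363 and chr11:33089755-33090633) in HF alone. The log2 difference for IFE over HF was −0.73 (SE 0.182, adjusted p = 0.0316), and for TD over HF it was −0.32 (95% interval −0.76 to 0.12). With genes limited to 10 kb the IFE over HF difference turned to 0.05 (adjusted p = 0.887) and the TD over HF difference to 0.22, since only the region at the gene then counted. The call was also lost in every fit that left out 1 library, with an adjusted p of 0.114 without TD-1, 0.113 without TD-2, 0.257 without IFE-1, 0.109 without IFE-2, 0.227 without HF-1 and 0.0852 without HF-2 (0.00388 to 0.887 over the 14 alternatives).

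Fgf20 (gene ID 80857, chr8:40279166-40286953), a ligand of the embryonic hair placode in mouse, was the only paracrine ligand that passed as higher in IFE than in HF. Its 4 regions, all 5.96 to 45.4 kb outside the span, were covered over 2903 and 3000 bp in TD, 4331 and 3802 bp in IFE, and 2282 and 2947 bp in HF. Both IFE libraries were above the other 4. Of the 4 regions 3 were open in all 6 libraries, and the other (chr8:40270122-40271218) in both IFE libraries and HF-2. The log2 difference for IFE over HF was 0.49 (SE 0.116, adjusted p = 0.0259), and for TD over IFE −0.36 (SE 0.116, unadjusted p = 0.0203, adjusted p = 0.239). The IFE over HF call did not hold in the limma fits with genes limited to 10 kb (0.47, adjusted p = 0.0957) or without scaling (0.44, adjusted p = 0.139). Nor did it hold on the number of open regions (0.16, adjusted p = 0.612). The call was lost without TD-1 (adjusted p = 0.0868), TD-2 (0.0864), IFE-1 (0.194), IFE-2 (0.101), HF-1 (0.126) or HF-2 (0.0516), and over the 14 alternatives the adjusted p ran from 0.0178 to 0.612. The remaining paracrine ligands had little: Fgf5, Fgf8, Fgf9, Fgf16 and Fgf22 had 1 or 2 regions each, and none of these was specific between any 2 populations. Fgf5, which in mouse ends the growth phase of the hair cycle, had 1 region (353 bp wide), which was covered over its whole width in TD-1 and not open in the other 5 libraries.

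There were 9 members with no region, namely Fgf3, Fgf4, Fgf6, Fgf7, Fgf10, Fgf11, Fgf12, Fgf17 and Nrg3. No consensus region overlapped the span of 8 of them, including Nrg3, whose span is 1110 kb long, and Fgf7 and Fgf10, which encode ligands of FGFR2 made by dermal cells. At Fgf11, 2 overlapping regions were given to its neighbours Chrnb1 and Tmem102.

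The endocrine FGFs had few regions, and Fgf15 was the one that differed. Fgf15 (gene ID 14170, chr7:144896532-144900953), the mouse counterpart of a human bile acid hormone of the gut, had 2 regions, covered over 1643 and 1386 bp in TD, 2282 and 1354 bp in IFE, and 441 and 616 bp in HF. Both HF libraries were below the other 4, and TD lay within the IFE range. The region at its lower-coordinate end (chr7:144895428-144896906) was open in all 6 libraries, and a region 6.2 kb beyond the span (chr7:144907150-144908312) in both TD and both IFE libraries and in neither HF library. On the log2 scale the difference was 0.87 for IFE over HF (SE 0.164, adjusted p = 0.0121) and 0.72 for TD over HF (SE 0.164, adjusted p = 0.0356). For Fgf15, the IFE against HF call ended without TD-1 (adjusted p = 0.0731), TD-2 (0.0735), IFE-1 (0.0743), HF-1 (0.168) or HF-2 (0.128), and the TD against HF call without TD-1 (0.249), TD-2 (0.142), HF-1 (0.292) or HF-2 (0.217). Over the 14 alternatives the adjusted p reached at most 0.168 and 0.292 for these comparisons and the sign held. Fgf21 and Fgf23 had 1 region each, outside their spans, open in 6 and 5 libraries.

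Among the intracellular FGF homologous factors, which act on ion channels and the cytoskeleton and not through FGF receptors, no member passed the test. Fgf14 (gene ID 14169, span 703 kb) had 7 short regions, 0 of them open in all 6 libraries, covered over 1084 and 1527 bp in TD, 1954 and 2038 bp in IFE, and 1038 and 1823 bp in HF. Of these, chr14:123990128-123991180 was open in TD and IFE and not in HF, chr14:124575091-124575453 in both TD libraries and IFE-1 and not in HF, chr14:124040672-124041263 in IFE and HF and not in TD, and chr14:124042324-124042958 in HF alone. The log2 difference was 0.32 for IFE over HF (95% interval −0.09 to 0.73) and −0.38 for TD over IFE (−0.79 to 0.02).

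Of the FGF receptors, Fgfr1 was the one that passed, with the longer covered length in HF. Fgfr1 (gene ID 14182, chr8:25518759-25575718) encodes a receptor found in mesenchymal and epithelial cells. Its 7 regions were covered over 6539 and 5899 bp in TD, 6181 and 5952 bp in IFE, and 9072 and 8312 bp in HF, with both HF libraries above the other 4 and TD and IFE overlapping. Its log2 difference was −0.45 for IFE over HF (SE 0.0912, adjusted p = 0.0146) and −0.43 for TD over HF (SE 0.0912, adjusted p = 0.0298). There were 5 regions open in all 6 libraries, 1 of them at the start of the gene, and 2 inside the span (chr8:25520938-25522008 and chr8:25527516-25528109) open in HF alone. The IFE against HF call ended without IFE-1 (adjusted p = 0.0917), IFE-2 (0.0977), HF-1 (0.0851) or HF-2 (0.0572). The TD against HF call ended without TD-1 (0.0639), TD-2 (0.0798), IFE-1 (0.0858), IFE-2 (0.0862), HF-1 (0.132) or HF-2 (0.0918), and over the 14 alternatives the sign held for both, with adjusted p up to 0.0977 and 0.132.

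Fgfr2 (gene ID 14183, chr7:130162451-130266808), the main FGF receptor of keratinocytes, had the most regions of the set with 29, of which 11 were open in all 6 libraries. They were covered over 16343 and 16232 bp in TD, 19084 and 16270 bp in IFE, and 17691 and 17655 bp in HF. The groups lay close together, and the log2 differences were −0.11 for TD over IFE, −0.11 for TD over HF and −0.00 for IFE over HF, with 95% intervals within −0.31 to 0.20. Single regions still differed: chr7:130206379-130207556 was open in TD and HF and not in IFE, chr7:130238219-130238959 in HF alone, and chr7:130290433-130291020 in IFE alone. Fgfr3 (gene ID 14184) had 6 regions covered over 6378 and 6755 bp in TD, 7695 and 7797 bp in IFE, and 6596 and 5395 bp in HF. IFE was highest in both libraries, but the log2 difference of 0.33 for IFE over HF had an adjusted p of 0.0721 and no region was specific. Fgfr4 (gene ID 14186) had 4 regions covered over 3530 and 2903 bp in TD, 4275 and 3836 bp in IFE, and 3573 and 3248 bp in HF, and no comparison passed. Its region at the start of the gene (chr13:55152652-55153065) was open in IFE-1 and both HF libraries, and a region 3.43 kb outside the span (chr13:55148916-55149390) in HF alone.

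**Figure D3:**
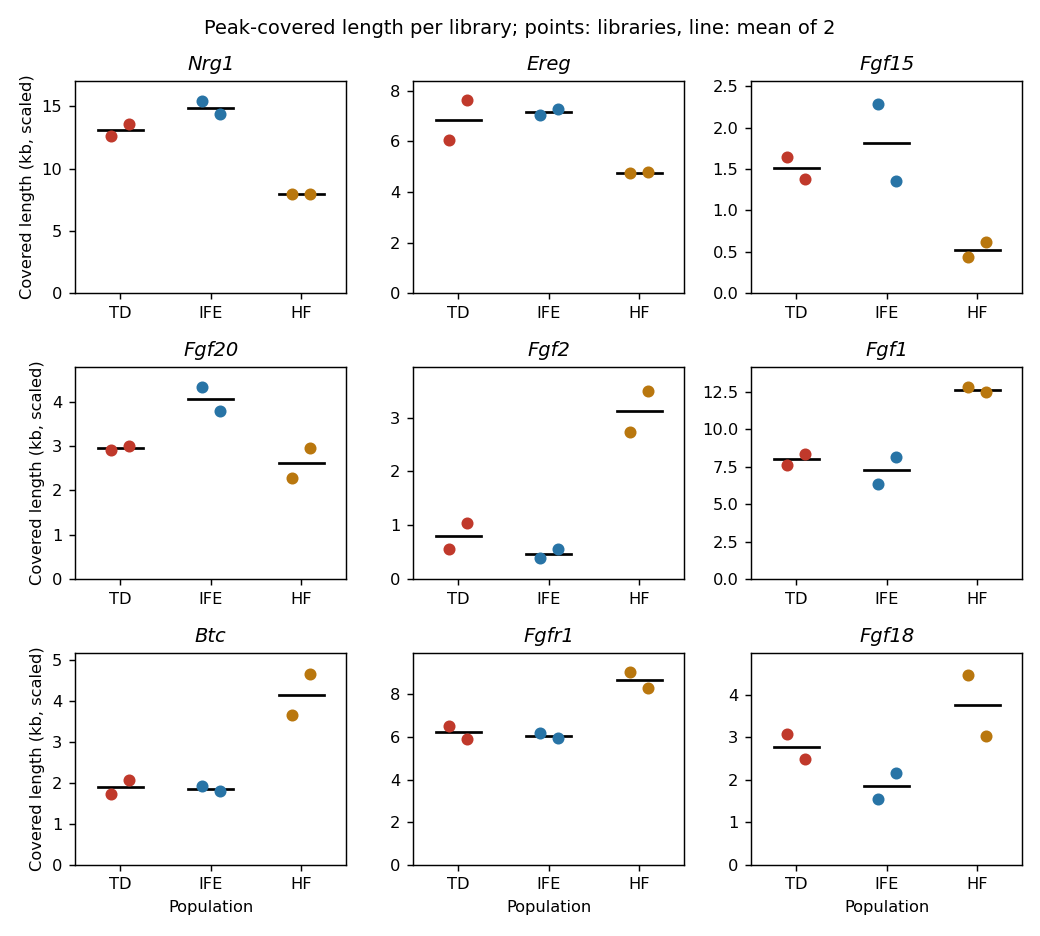
Peak-covered length of the regions of a gene in kb, scaled to the mean total length, for each library (points) with the mean of 2 (line), for TD, IFE and HF and the 9 genes that passed the test in some comparison. Nrg1, Ereg and Fgf15 lie lowest in HF, and Fgf2, Fgf1, Btc and Fgfr1 highest in HF with no overlap with TD or IFE.

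The EGF ligand genes Epgn, Ereg, Areg and Btc lie in that order within 375 kb of chromosome 5 and held 27 regions, and within this cluster Btc and Ereg differed in opposite directions between IFE and HF. Btc (betacellulin, gene ID 12223, chr5:91357261-91402994), a ligand of EGFR and ERBB4, had 9 regions covered over 1721 and 2063 bp in TD, 1939 and 1793 bp in IFE, and 3654 and 4660 bp in HF. Both HF libraries were well above the other 4. Its log2 difference was −0.84 for IFE over HF (SE 0.120, adjusted p = 0.00462) and −0.83 for TD over HF (SE 0.120, adjusted p = 0.00921), and 0.01 for TD over IFE (95% interval −0.28 to 0.30). The region at its promoter (chr5:91402117-91403224) was open in all 6 libraries, while 3 regions inside the gene (chr5:91375550-91375947, chr5:91379170-91379849 and chr5:91384429-91384934) were open in HF alone. The IFE against HF call ended without IFE-1 (adjusted p = 0.0682), IFE-2 (0.0695) or HF-2 (0.0544). The TD against HF call ended without TD-1 (0.0927), TD-2 (0.0556), IFE-1 (0.0604), IFE-2 (0.0605) or HF-2 (0.0829), and over the 14 alternatives the sign held, with adjusted p up to 0.152 and 0.174.

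Ereg (epiregulin, gene ID 13874, chr5:91074617-91093649), a ligand of EGFR and ERBB4 made by keratinocytes, had 8 regions covered over 6075 and 7625 bp in TD, 7030 and 7302 bp in IFE, and 4747 and 4784 bp in HF. Both HF libraries lay below the other 4. The log2 difference for IFE over HF was 0.50 (SE 0.113, adjusted p = 0.0218), and for TD over HF it was 0.44 (95% interval 0.17 to 0.71, adjusted p = 0.0509). The region at its lower-coordinate end (chr5:91074322-91076158) was open in both TD and both IFE libraries and in neither HF library, and 5 of the 8 regions were open in all 6. The IFE against HF call ended without IFE-1 (adjusted p = 0.136), IFE-2 (0.147), HF-1 (0.152) or HF-2 (0.152), with adjusted p from 0.0126 to 0.612 over the 14 alternatives and the same sign.

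The other genes of the cluster did not pass. Areg (amphiregulin, gene ID 11839), an EGFR ligand of proliferating keratinocytes, had 7 regions covered over 1753 and 2287 bp in TD, 3689 and 3211 bp in IFE, and 1684 and 2830 bp in HF. IFE was highest in both libraries, with a log2 difference of −0.56 for TD over IFE (unadjusted p = 0.0204, adjusted p = 0.24) and 0.47 for IFE over HF (adjusted p = 0.121), and chr5:91156531-91157108 was open in both IFE libraries and TD-2 and not in HF. Epgn (epigen, gene ID 71920) had 3 regions, 2 open in all 6 libraries and 1 (chr5:91029975-91030783) in HF alone.

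**Figure D4:**
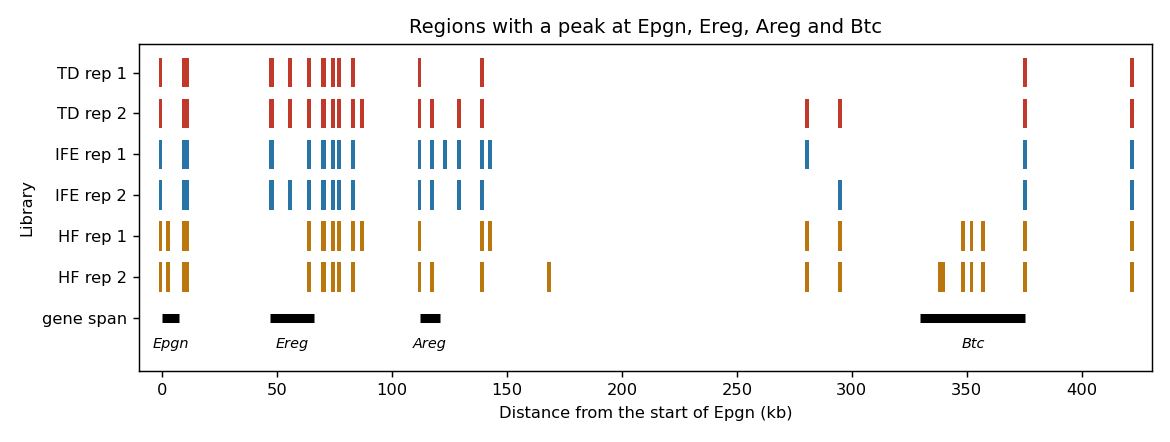
Consensus regions open in each library (coloured ticks, rows TD, IFE and HF with 2 libraries each) along the Epgn, Ereg, Areg and Btc cluster, as distance in kb from the start of Epgn, with the gene spans in black. The first region over Ereg is missing in both HF rows, and 3 regions inside Btc appear in both HF rows and in no other.

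Of the EGF ligands elsewhere in the genome, Tgfa (transforming growth factor alpha, gene ID 21802), an EGFR ligand of keratinocytes, had 12 regions covered over 10070 and 8575 bp in TD, 9787 and 8592 bp in IFE, and 8993 and 9861 bp in HF, and the groups overlapped. Its region at chr6:86182393-86182888 was open in TD and IFE and not in HF, and chr6:86230548-86231325 in IFE alone. Hbegf (heparin-binding EGF-like growth factor, gene ID 15200), known in keratinocyte migration, had 5 regions covered over 3640 and 3043 bp in TD, 3878 and 3294 bp in IFE, and 3215 and 2371 bp in HF, and 3 of the 5 were open in all 6 libraries. Its region at chr18:36517148-36517542 was open in both IFE libraries and TD-2 and not in HF. For Tgfa and Hbegf the log2 differences for IFE over HF were −0.03 and 0.28, with adjusted p of 0.863 and 0.224. Egf itself had 2 regions, 1 open in all 6 libraries and 1 in HF-2 alone, and passed no test.

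Nrg1 (neuregulin 1, gene ID 211323, chr8:31807452-32891609), a ligand of ERBB3 and ERBB4 known in Schwann cell and heart development, had the clearest difference of the set on the TD and IFE side. Its 20 regions all lay inside the span of 1080.0 kb. They were covered over 12657 and 13557 bp in TD, 15405 and 14371 bp in IFE, and 7999 and 7995 bp in HF. Both HF libraries were far below the other 4, and both IFE libraries were above both TD libraries. The log2 difference was 0.82 for IFE over HF (SE 0.0755, adjusted p = 0.00106), a fold of 1.76, and 0.65 for TD over HF (SE 0.0755, adjusted p = 0.00485), a fold of 1.57. For TD over IFE it was −0.17 (95% interval −0.35 to 0.01, adjusted p = 0.422).

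Between IFE and HF, 8 regions of Nrg1 were specific to IFE and 3 to HF, and between TD and HF, 6 were specific to TD and 1 to HF. A stretch of 86.8 kb inside the gene (chr8:32218800-32305564) held 9 of the 20 regions. Of these, 6 were open in both TD and both IFE libraries and in neither HF library, 1 was open in all 6, 1 in every library except HF-2, and 1 in IFE-1 only. The regions on the lower-coordinate side of this stretch were more mixed: 4 were open in all 6 libraries, chr8:32047771-32048275 was open in HF alone, and chr8:32183896-32184648 in TD and HF and not in IFE. The IFE against HF call held in all 6 fits that left out 1 library, with log2 differences from 0.77 to 0.87, and in 7 of the 8 other alternatives. It missed the threshold on the number of open regions (0.79, adjusted p = 0.0801). The TD against HF call was lost without HF-1 (adjusted p = 0.0507) or HF-2 (0.0548), without scaling (0.0995) and on the number of open regions (0.13), with log2 differences from 0.60 to 0.70 over the 14 alternatives.

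The other neuregulins did not pass. Nrg2 (gene ID 100042150), also a ligand of ERBB3 and ERBB4, had 19 regions covered over 8030 and 9699 bp in TD, 10058 and 10013 bp in IFE, and 10871 and 10429 bp in HF. HF was highest and TD lowest, by a log2 difference of −0.24 for TD over HF (adjusted p = 0.171), and 2 regions were specific to IFE and 4 to HF between these populations. Nrg4 (gene ID 83961), a ligand of ERBB4, had 8 regions covered over 3512 and 4559 bp in TD, 4274 and 5076 bp in IFE, and 2017 and 4230 bp in HF. The HF libraries were far apart, and HF overlapped TD.

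No gene of the EGF receptor family passed in any comparison. Egfr (gene ID 13649, chr11:16752203-16913907), the receptor of most EGF-like ligands in keratinocytes, had 25 regions, of which 14 were open in all 6 libraries. They were covered over 18226 and 19171 bp in TD, 22219 and 20686 bp in IFE, and 20566 and 19995 bp in HF, so both TD libraries were below the other 4. The log2 difference was −0.19 for TD over IFE (95% interval −0.34 to −0.04, adjusted p = 0.245), −0.11 for TD over HF (−0.26 to 0.04) and 0.08 for IFE over HF (−0.07 to 0.23). The region chr11:16766294-16766795 was open in IFE alone, and chr11:16895421-16896021 in HF alone. Erbb2 (gene ID 13866), a coreceptor with no known ligand of its own, had 2 regions open in all 6 libraries, covered over 3195 and 2500 bp in TD, 3137 and 3215 bp in IFE, and 2816 and 2782 bp in HF.

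Erbb3 (gene ID 13867), a neuregulin receptor with little kinase activity, had 3 regions covered over 3809 and 2914 bp in TD, 4037 and 3638 bp in IFE, and 2807 and 2772 bp in HF. HF was lowest in both libraries, and chr10:128587301-128588092 was open in TD and IFE and not in HF, but the log2 difference of 0.35 for IFE over HF had an adjusted p of 0.0824. Erbb4 (gene ID 13869), the neuregulin receptor with full kinase activity, had 5 regions in and beside its span of 1080.0 kb, covered over 3345 and 4334 bp in TD, 3204 and 3519 bp in IFE, and 3842 and 4433 bp in HF. The log2 difference was −0.23 for IFE over HF (95% interval −0.54 to 0.07). Its region at chr1:68051119-68052090 was open in TD-2 and both HF libraries, and chr1:69157176-69157863, 48.6 kb outside the span, in both TD libraries and IFE-2.

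The state of TD was then read at the member regions that separated IFE from HF. Of the 24 regions specific to IFE, 12 (50.0%) were open in both TD libraries, 9 (37.5%) in 1 and 3 (12.5%) in none, where the shares over all 6224 such regions near genes were 63.7%, 24.0% and 12.3%. Of the 31 regions specific to HF, 3 (9.68%) were open in both TD libraries, 8 (25.8%) in 1 and 20 (64.5%) in none, where the shares over all 8029 were 25.6%, 25.7% and 48.7%. The TD libraries differed here: TD-1 and TD-2 were open at 13 and 20 of the 24 regions and at 3 and 11 of the 31. The 55 regions specific to IFE or HF had a median width of 755 bp, against 759 bp for all such regions near genes. Member regions open in all 6 libraries had 1400.5 bp, against 1298 bp. Of the 55, 44 (80.0%) lay inside a gene span, against 65.1% of all 14253 such regions. Member regions of any kind also lay inside a span more often (74.3%, against 69.5% of all regions near genes).

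Genes that act with these families were read from 5 lists of 74 genes, of which 72 had a region. Between IFE and HF, 10 were higher in IFE (13.9%, against 13.8% of all genes) and 6 in HF (8.33%, against 10.5%). Between TD and HF, 4 were higher in TD (5.56%, against 8.92%) and 0 in HF (against 5.46%), and between TD and IFE 2 were higher in TD (2.78%, against 2.58%) and 1 in IFE (1.39%, against 0.148%). Most of these shares lay near or under those of all genes, so the counts say little about the pathway as a group. The median log2 difference over the 72 was 0.07 for IFE over HF, 0.03 for TD over HF and −0.06 for TD over IFE. The feedback inhibitors gave 4 of 17 higher in IFE than in HF (23.5%, against 13.8% of all genes) and 0 lower (against 10.5%), and whether the list differs from other genes was not tested. The 4 were Spry1 (log2 difference 0.72, adjusted p = 0.0028) and Spred2 (0.29, adjusted p = 0.0312), which restrain RAS and MAPK signalling, the ERK phosphatase Dusp5 (0.58, adjusted p = 0.00944) and the ubiquitin ligase Cblb (0.60, adjusted p = 0.00218). Spry1 and Cblb also passed as higher in TD than in HF (0.58 and 0.38, adjusted p = 0.0108 and 0.0183).

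The list of adaptors and cascade kinases gave 5 of 23 higher in IFE than in HF (21.7%, against 13.8% of all genes), among them the adaptors Frs2, Grb2 and Gab1 and the phosphatase Ptpn11 (SHP2), and 1 lower (4.35%, against 10.5%), the adaptor Frs3. Ptpn11 differed most, by 1.01 for IFE over HF (adjusted p = 0.00132) and 1.00 for TD over HF (adjusted p = 0.00343). The ligand shedding list of 6 genes was split. Adam10 was higher in IFE than in HF (0.86, adjusted p = 0.0115), 16.7% of the list against 13.8% of all genes. Adam9 and Adam12 were higher in HF (−0.38 and −0.43 for IFE over HF, adjusted p = 0.0328 and 0.0138), 33.3% against 10.5%. Adam10 was also higher in TD than in HF (0.76, adjusted p = 0.029), 16.7% against 8.92%. Of 13 coreceptor and binding protein genes, the decoy receptor Fgfrl1 and the heparan sulphate proteoglycan Gpc6 were higher in HF than in IFE (−0.74 and −1.49 for IFE over HF, adjusted p = 0.00612 and 0.00342). They made up 15.4% of the list, against 10.5% of all genes. Of 13 target transcription factors only Elk3 (7.69% of the list) passed. It was lower in IFE than in HF (−0.80, adjusted p = 0.0157), as were 10.5% of all genes. It was higher in TD than in IFE (1.06, adjusted p = 0.0286), as were 2.58% of all genes. Adam12 was likewise higher in TD than in IFE (0.69, adjusted p = 0.0127), and Frs2 was lower in TD than in IFE (−0.52, adjusted p = 0.0472).

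Many of these calls were lost when 1 library was left out, in some cases with little change in the log2 difference. A TD library enters the IFE over HF difference only through the scaling, so that difference is nearly fixed when the TD library is left out. Only the shared estimate of the spread then changes much. Elk3 for IFE over HF thus gave −0.80 without TD-1 and −0.80 without TD-2 by construction, but −0.56 without IFE-1. Ptpn11 for TD over HF gave 1.03 without HF-1 and 0.98 without HF-2. A lost call alone therefore does not show that 1 library carried the difference. The 10 genes higher in IFE than in HF became 9 without TD-1 or TD-2, 3 without IFE-1, 4 without IFE-2, 5 without HF-1 and 2 without HF-2, and the 6 higher in HF became 2 without IFE-1 or IFE-2 and 1 without HF-1 or HF-2. The 4 higher in TD than in HF became 2 without TD-1, IFE-1 or IFE-2, 3 without TD-2, and 0 without HF-1 or HF-2. The 2 higher in TD than in IFE became 1 without TD-1, TD-2, HF-1 or HF-2 and 0 without IFE-1 or IFE-2. Ptpn11 kept its IFE against HF call in all 6 of these fits and in every other alternative. Spry1 kept that call in the 6 fits but lost it with genes limited to 10 kb (adjusted p = 0.588) and on the number of open regions. Under the same 2 settings its TD against HF call was lost too, with adjusted p = 0.945 within 10 kb.

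Calls lost whichever library was left out were Gab1 and Adam9 for IFE against HF (adjusted p = 0.0806 to 0.215 and 0.0585 to 0.185), Adam10 for TD against HF (0.0508 to 0.25), and Elk3 and Frs2 for TD against IFE (0.0651 to 0.233 and 0.15 to 0.345). For IFE against HF, Adam10 and Elk3 kept the call in 1 of the 6 fits, that without IFE-2, Frs2 lost it without IFE-1, IFE-2 or HF-2 (0.0598 to 0.0998), and Adam12 without IFE-1 or IFE-2 (0.0791 and 0.0775). Grb2, Frs3, Fgfrl1, Dusp5 and Spred2 lost it without any 1 of the IFE or HF libraries. Cblb lost it without HF-2 (0.0514), and Gpc6 without HF-1 (0.0684) or HF-2 (0.0888). For TD against HF, Ptpn11 lost the call without HF-1 (0.051) or HF-2 (0.0595), Spry1 without IFE-2, HF-1 or HF-2 (0.0501 to 0.0787), and Cblb in all but the fit without IFE-2 (0.0503 to 0.158). Adam12 for TD against IFE was lost without TD-2 (0.0584), IFE-1 (0.13) or IFE-2 (0.117).

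Several markers of other cells moved with the genes that were higher in HF, and others were higher in TD or IFE. The fibroblast list (Pdgfra, Col1a1, Col1a2, Col3a1, Lum, Dcn, Vim) had 10 and 12 of its 16 regions open in TD, 6 and 4 in IFE, and 15 and 14 in HF, although cells were sorted as EPCAM-positive. Of its 6 genes with a region, 4 were higher in HF than in IFE (66.7%, against 10.5% of all genes). These were Pdgfra, Col1a1, Col1a2 and Col3a1, and Lum had no region. Col1a2 and Col3a1 were lower in TD than in HF (−0.55 and −0.82, adjusted p = 0.00824 and 0.00939), 33.3% of the 6 against 5.46% of all genes. This Col1a2 call was lost with genes limited to 10 kb and on the number of open regions. Dcn was higher in TD than in HF (1.01, adjusted p = 0.00678; 0.0502 without HF-2), and Col1a2 and Dcn were higher in TD than in IFE, calls that were lost without IFE-1 or IFE-2 and for Dcn also without HF-1 or HF-2. The Col1a2 and Col3a1 calls between IFE and HF held without any 1 library. Pdgfra missed the threshold without HF-1 (log2 difference −0.73), with genes limited to 10 kb and on the number of open regions. Col1a1 missed it without HF-1 (−1.06) or HF-2 (−1.13) and on the number of open regions. The hair follicle list had 6 of 8 genes lower in IFE than in HF (against 10.5% of all genes) and 4 of 8 lower in TD than in HF (against 5.46%). Of the 4, Nfatc1 and Sox9 lost the TD against HF call in all 6 fits that left out 1 library, Runx1 in all but the fit without TD-2, and Lgr5 without either TD or either HF library. For IFE against HF, Tcf7l1 lost the call in all 6 of these fits. Nfatc1 lost it without any 1 of the IFE or HF libraries, and Cd34 without HF-1 or HF-2. Lgr5, Lhx2 and Runx1 kept it in all 6, but Lhx2 and Runx1 lost it on the number of open regions. Of the melanocyte list, Mitf and Dct were lower in IFE than in HF (Dct not without IFE-2, HF-1 or HF-2), and Tyrp1 was higher in TD than in HF (0.42, adjusted p = 0.0225), a call lost in all 6 fits that left out 1 library (0.0633 to 0.123). The list had 20 and 25 of 29 regions open in TD, 16 and 16 in IFE, and 22 and 23 in HF, and Tyr, Pmel and Kit had no region. Of the endothelial and mural list, Erg was lower in TD and in IFE than in HF (TD against HF adjusted p = 0.0515 without HF-2), and Pecam1 was higher in IFE than in HF, but not without IFE-1 or IFE-2. This list had 15 and 17 of its 28 regions open in TD, 18 and 16 in IFE, and 24 and 25 in HF, and Cdh5, Kdr, Rgs5 and Pdgfrb had no region. The part of these markers in the longer covered length of Fgf2, Fgf1, Fgf18, Btc and Fgfr1 in HF was not tested. The immune list had 6 and 6 of 6 regions open in TD, 5 and 5 in IFE, and 3 and 3 in HF, with Cd207 and Csf1r without a region. Of its 4 genes with a region, Cd3e, Itgam and Ptprc were higher in TD than in HF (3 of 4, against 8.92% of all genes), and Cd3e and Itgam were higher in IFE than in HF (2 of 4, against 13.8%). Cd3e (0.72 for TD over HF and 0.83 for IFE over HF, adjusted p = 0.00825 and 0.00256) kept both calls in all 13 alternatives that gave it a value, while Itgam and Ptprc lost theirs without any 1 of the HF or IFE libraries, and Itgam for TD against HF also without TD-1. The Schwann list had 15 and 18 of 23 in TD, 19 and 18 in IFE, and 17 and 21 in HF, with S100b among the genes without a region. The Merkel cell list (Atoh1, Isl1, Krt20, Krt8, Krt18, Piezo2) had 5 and 9 of 14 regions open in TD, 8 and 6 in IFE, and 10 and 12 in HF. Its gene Piezo2 was lower in IFE and in TD than in HF (−1.09 and −0.65) and Isl1 was higher in TD than in HF (0.37), and each of these calls was lost without HF-1 or HF-2, among others. The part of the immune list in the higher values of Nrg1, Ereg and Fgf15 in TD or IFE than in HF was not tested.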

How the data were processed

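ATAC-seq peaks were compared in 6 libraries, 2 each of TD, IFE and HF. The submitters' processing notes name Bowtie2 (2.4.5), MACS2 (2.2.7.1), Trim Galore (0.6.7) and SAMtools (1.9) and the mm10 build; for their settings and any shift of reads, the sources used here say nothing. The deposited lists, 1 per library, hold a chromosome, a start, an end and a peak name, with no score, so the position columns were the only values used, and calling per library lets depth change what is called.

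Peaks were merged into consensus regions, given to the nearest protein-coding span of RefSeq GRCm38.p6, and compared as described with limma 3.58.1 (trend, R 4.3.3) and pandas 2.3.3 in Python 3.11.15. The labels give the populations. Scripts were tested on simulated data. Named genes were members with a region specific to 1 population or a call, the 8 receptors, and of the other lists the genes called, except that some results on single genes of those lists are not reported here. The members, lists and tests were chosen with earlier results of these data known. No genome was used, so exons and introns were not separated, and peak sequences were not read.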

Additional observations from a re-analysis of the deposited data

How the results depend on the processing

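Region counts and covered-length calls were recomputed under 14 settings each, the replicate block among them. No share over all regions or genes is given for these settings. A shift common to all genes therefore cannot be told from one in these families. Counts of member regions moved by over 1.5 times with cover of at least 50% of a region or genes within 100 kb (TD over IFE 6 in both). With the wider 50% of the peaks of each library, they were IFE over TD 3, TD over HF 7, HF over TD 6, IFE over HF 14 and HF over IFE 8. This turned the order of the main counts, which were larger for HF over IFE (31) than for IFE over HF (24). The main counts were likewise larger for HF over TD (23) than for TD over HF (18). With the same number of widest peaks per library (50153), IFE over TD was 13. Members called changed without scaling (TD over HF 0, HF over TD 1, IFE over HF 2), on the number of open regions (IFE over HF 2, HF over IFE 3), and with the widest peaks, a setting chosen after seeing the data (IFE over TD 1). Region counts can only stay or rise when 1 library is left out, because the rule for a specific region is then looser. Fits that leave out 1 library assume that the lone library of a population varies like the others. They gave region counts of 3 to 14 for TD over IFE, 6 to 22 for IFE over TD, 18 to 30 for TD over HF, 23 to 39 for HF over TD, 24 to 39 for IFE over HF and 31 to 44 for HF over IFE, and called 0 to 1, 0 to 0, 0 to 2, 0 to 2, 1 to 3 and 0 to 4 members in that order.

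Log2 differences changed sign for some members that passed no test in the comparison named. Fits that left out 1 library gave Erbb2 −0.26 to 0.0064 and Erbb4 −0.0045 to 0.29 for TD over IFE, and Fgfr1 −0.035 to 0.093 and Fgfr2 −0.22 to 0.0014 and Btc −0.074 to 0.097 for the same comparison. For TD over HF they gave Erbb2 −0.12 to 0.14, Erbb4 −0.24 to 0.057, Fgfr3 −0.0061 to 0.24 and Fgfr4 −0.18 to 0.039, and for IFE over HF they gave Fgfr2 −0.11 to 0.11 and Tgfa −0.12 to 0.0503. Erbb2 TD over HF was −0.014 without scaling and −0.014 with quantile normalization, which gave Fgfr2 IFE over HF 0.014. With the widest peaks Fgfr2 IFE over HF was 0.043 and Fgfr4 TD over HF 0.094, and Btc TD over IFE −0.21. On the number of open regions Btc TD over IFE was −0.047, Egfr TD over HF 0.072, Fgfr3 TD over HF −0.11 and Fgfr4 IFE over HF −0.37. Of the called members, only Fgf18 changed sign under these settings, to 0.047 for IFE over HF within 10 kb, which also gave Fgf18 TD over HF 0.22, Btc TD over IFE −0.036 and Tnc TD over HF −0.0901.

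The labels do not say whether same-numbered libraries share mice or a batch, and the libraries were treated as unpaired. Deviations of same-numbered libraries correlated by 0.0523 (TD and IFE), 0.095 (TD and HF) and 0.151 (IFE and HF) over 15553 genes. With so few libraries per population, these values cannot tell whether the replicate numbers pair them. With the replicate number as a block, members called were 0, 0, 3, 5, 6 and 5 in the same order. For region counts the block picks the same regions by construction, so it is no check of them. The nearest start site was not run as an alternative, because start sites were at hand for 29 of 41 members. Peak lists hold no depth, so a region without a peak may be under the calling threshold and not closed.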
